A study of Mus musculus with 10 samples.

Results

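De novo lipogenesis, the making of fatty acids from sugar carbon, was followed through 10 genes in mouse liver with and without Gnmt, which encodes glycine N-methyltransferase, an abundant hepatocyte enzyme that consumes S-adenosylmethionine. The genes were taken by name as the enzymes of the pathway (Acly, Acaca, Acacb, Fasn, Elovl6, Scd1 and Me1) and its regulators (Srebf1, Mlxipl and Thrsp). The rule itself used no difference between groups, but the list was chosen with earlier results of these data known. They are 10 of 18193 genes with a probe set of their own on the arrays. For each, the probe set with the highest mean signal over the 10 arrays was used, out of 23 annotated to the 10 genes and 45101 on each array. All 10 passed the filter on low signals that left 11032 genes for testing.

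The mice were of a mixed 129/B6 strain and each array held 1 RNA sample. There were 2 HCC (hepatocellular carcinoma) arrays, from a 14-month female and an 18-month male, and 1 array of dysplasia nodules from a 21-month female, all from Gnmt knockout (Gnmt -/-) mice. Liver beside each of these 3 lesions, called adjacent liver, was also Gnmt knockout and gave 3 arrays. At 11 weeks there were 2 Gnmt knockout arrays and 2 wild-type arrays, 1 female and 1 male per genotype, each a mix of equal RNA amounts from 3 mice. All aged tissue was knockout, so no aged wild-type liver was compared, and each aged array was 1 tissue of 1 mouse. The labels gave no knockout construct, diet, feeding state or hour of sampling, and no mouse numbers, so each lesion was matched to adjacent tissue by sex and age, and the shared mouse is inferred.

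In the liver, citrate exported from mitochondria is cleaved to acetyl-CoA by ATP citrate lyase (Acly), carboxylated to malonyl-CoA by acetyl-CoA carboxylase (Acaca, and Acacb at the mitochondrial surface), and built into palmitate by fatty acid synthase (Fasn) with NADPH that malic enzyme (Me1) helps to supply. Palmitate is then lengthened by Elovl6 and desaturated by Scd1. Transcription of the pathway is driven by SREBP-1c, a product of Srebf1 that follows insulin and LXR, and by ChREBP, encoded by Mlxipl, which responds to sugar, while Thrsp encodes Spot 14, a small protein that promotes lipogenesis and responds strongly to thyroid hormone, feeding and carbohydrate. These genes are known to rise on refeeding and fall on fasting, and several of them follow the day and night cycle.

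Promoter sequences are shown for Fasn and Thrsp, which had a Pearson r of 0.66 and 0.69 with the mean of the other 9 genes. They had an r of only 0.15 with each other. Those of Mlxipl, which had an r of 0.1 with that mean, are shown too. RefSeq promoters (GRCm38.p6, 250 bases before to 50 after a transcript start) were given for 9 of the 10 genes, 13 promoters in all, and none was used for Scd1. Each is written 5′ to 3′ on the gene's strand, and capitals mark matches on either strand to the SREBP element TCACNCCAC, the E-box CACGTG and the NF-Y box CCAAT, whose matches on the opposite strand appear as the reverse complement. Fasn is at chr11:120805958-120825166, Thrsp at chr7:97412933-97417550 and Mlxipl at chr5:135089890-135139768, and Mlxipl has 2 starts in the table.
Fasn, chr11:120824498-120824797, minus strand: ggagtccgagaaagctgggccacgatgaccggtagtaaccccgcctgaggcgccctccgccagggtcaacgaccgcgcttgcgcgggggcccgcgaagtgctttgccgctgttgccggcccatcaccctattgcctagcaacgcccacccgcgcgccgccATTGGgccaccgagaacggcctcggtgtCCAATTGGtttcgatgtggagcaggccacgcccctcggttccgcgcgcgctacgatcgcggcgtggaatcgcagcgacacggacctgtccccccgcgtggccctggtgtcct
Thrsp, chr7:97417501-97417800, minus strand: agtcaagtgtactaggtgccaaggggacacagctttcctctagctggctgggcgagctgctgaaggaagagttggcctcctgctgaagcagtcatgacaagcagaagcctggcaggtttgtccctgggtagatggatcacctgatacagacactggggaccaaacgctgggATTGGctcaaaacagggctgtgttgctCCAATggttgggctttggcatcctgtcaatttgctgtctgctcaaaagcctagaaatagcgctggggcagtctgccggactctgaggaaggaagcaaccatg
Mlxipl, upstream start, chr5:135089640-135089939, plus strand: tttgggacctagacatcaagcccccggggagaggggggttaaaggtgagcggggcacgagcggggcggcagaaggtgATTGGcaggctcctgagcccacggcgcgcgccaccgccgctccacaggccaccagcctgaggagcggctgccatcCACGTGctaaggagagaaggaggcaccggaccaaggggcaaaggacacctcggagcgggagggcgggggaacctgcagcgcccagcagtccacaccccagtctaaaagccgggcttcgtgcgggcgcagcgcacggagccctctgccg
Mlxipl, downstream start, chr5:135106641-135106940, plus strand: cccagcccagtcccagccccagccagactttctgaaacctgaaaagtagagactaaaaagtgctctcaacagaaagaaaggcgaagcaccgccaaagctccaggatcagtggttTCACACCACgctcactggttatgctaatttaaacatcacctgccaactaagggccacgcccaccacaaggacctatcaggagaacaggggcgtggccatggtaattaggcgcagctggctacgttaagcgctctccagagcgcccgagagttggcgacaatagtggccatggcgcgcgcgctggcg
The Fasn promoter held NF-Y boxes that began 90, 62 and 59 bases before the start, the last pair overlapping, and the Thrsp promoter held boxes 79 and 52 bases before it. The NF-Y box was found in 8 of the 13 promoters, from 7 of the 9 genes, and in 37.4% of all 32851 promoters of the table. The SREBP element and the E-box were each found in 1 of the 13, both for Mlxipl, at 136 bases before the downstream start and 98 bases before the upstream start, and in 1.24% and 7.15% of all promoters. A GC box, GGGCGG on either strand, was in 5 of the 13 promoters, those of Acly, Srebf1, Me1 and Mlxipl, and in 35.7% of all. Neither the LXR direct repeat with a 4-base spacer nor the carbohydrate response element matched in any of the 13, and they matched in 0.0457% and 0.365% of all promoters. A match describes letters in these windows and not binding.

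Gnmt itself had signals of 12 to 329 on the 8 knockout arrays, against 59473 and 52140 in the wild-type pools. Signals are linear array values that the authors had scaled to the same trimmed mean of 500 on every array, with array medians of 77.4 to 102.4. Precision is limited by the small number of arrays. The hybridisation controls BioC and BioB (5′ probe sets) had a ratio of 1.0 to 1.6 on the 6 aged arrays and 2.97 to 4.16 on the 4 young arrays, so age and hybridisation cannot be told apart. Hepatocyte markers were high everywhere, with Alb at 62848 to 96840 and a sum over 10 marker genes of 476738 to 727221. Of 7 measured adipocyte genes, Adipoq, Lep and Ucp1 were at most 87.2, below the filter level of 91.0 on every array, while the sum over the 7 ran from 847 to 28279, most of it Fabp4 where the sum was high. The clock genes set 3 arrays apart. Dbp was at 42.2 and 214 in the HCC and adjacent liver of the 18-month male and at 191 in the wild-type female pool, against 2390 to 11097 on the other 7 arrays. Arntl, which oscillates in the opposite phase, was at 847, 553 and 912 on these 3 arrays and at 13.6 to 382 on the others.

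The groups overlapped in the mean level of the pathway. With each gene standardised over the 10 arrays, the mean of the 10 genes was 1.42 SD units in the HCC of the 14-month female, the highest of all arrays. Next came the knockout female pool (0.80) and the adjacent liver of the 21-month female (0.67). The lowest were the wild-type female pool (-0.87), the adjacent liver of the 18-month male (-0.83) and the knockout male pool (-0.67). The HCC, adjacent and young knockout groups each held arrays on both sides of 0, and both wild-type pools were below it. The 2 arrays of the 18-month male and the wild-type female pool, which stood apart in Dbp and Arntl, all had means below 0. So did the knockout male pool (-0.67), the nodules (-0.1) and the wild-type male pool (-0.08), with Dbp at 8414, 2505 and 9904.

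**Figure D1:**
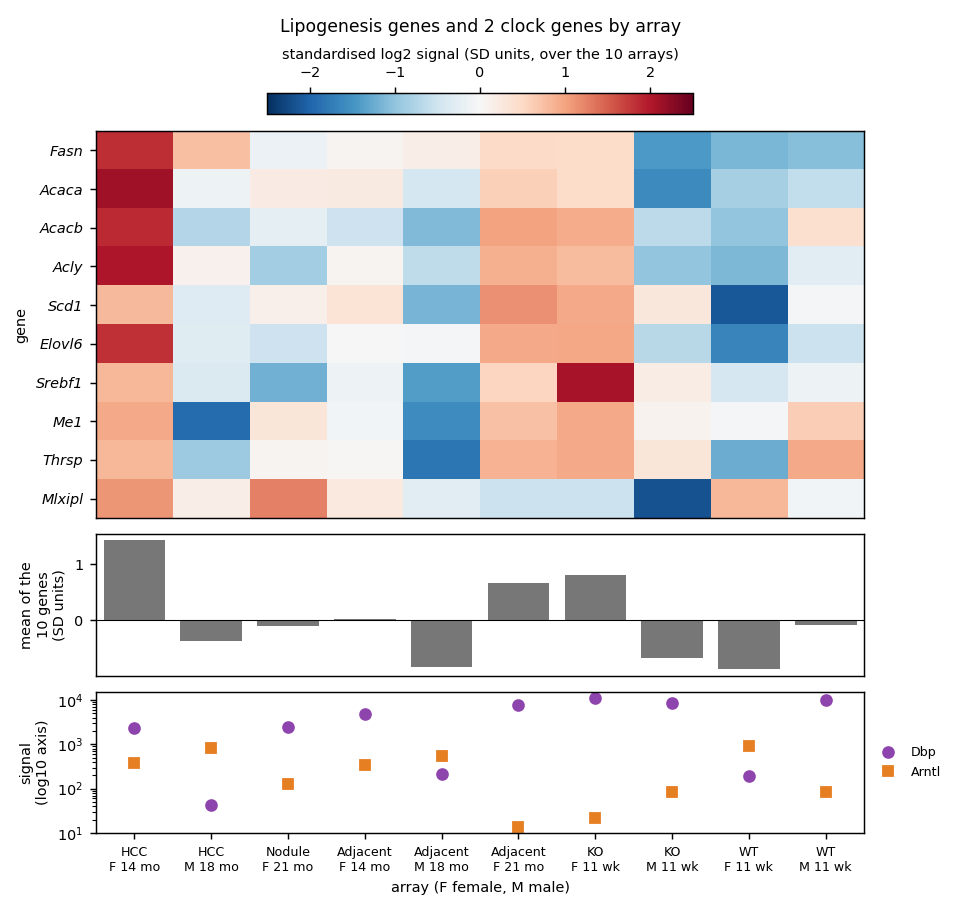
The top panel shows the standardised log2 signal of each of the 10 genes (SD units over the 10 arrays, red above and blue below the gene's own mean), the middle panel their mean on each array, and the bottom panel the signals of the clock genes Dbp and Arntl on a log10 axis. The 14-month female HCC has the highest mean (1.42) and the wild-type female pool the lowest (-0.87), and Dbp is at 42.2, 214 and 191 in the 18-month male HCC, its adjacent liver and the wild-type female pool.

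Fasn, which assembles palmitate, was highest in tumour tissue. Its signals were 29874 and 11941 in the HCC of the 14-month female and the 18-month male, 5715 in the nodules, and 6742, 7389 and 9577 in the adjacent livers of the 14-month female, the 18-month male and the 21-month female. At 11 weeks they were 9410 and 1932 in the knockout female and male pools, against 2495 and 2652 in the wild-type pools. Both HCC signals were above all 3 adjacent livers and above every young pool, while the knockout pools lay on either side of the wild-type pools. The range over the 10 arrays was 15.5-fold, and 3.2% of the 11032 genes ranged as widely on the log2 scale.

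Acaca, the cytosolic carboxylase that makes malonyl-CoA for fatty acid synthesis, had signals of 5052 and 1410 in the HCC of the 14-month female and the 18-month male and of 1704 in the nodules. The adjacent livers of the 14-month female, the 18-month male and the 21-month female had 1728, 1188 and 2130. The young knockout female and male pools had 1982 and 614, against 949 and 1069 in the wild-type female and male pools. The female HCC was above all other arrays, and the male HCC lay within the range of the adjacent livers.

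Acacb, whose malonyl-CoA restrains fatty acid entry into mitochondria, was at 2432 and 446 in the HCC of the 14-month female and the 18-month male, at 626 in the nodules and at 511, 350 and 1398 in their adjacent livers in the order 14-month female, 18-month male and 21-month female. In the young pools it was at 1318 and 472 in knockout females and males, against 375 and 933 in wild-type females and males. Every group with more than 1 array overlapped with the others.

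Acly, which supplies cytosolic acetyl-CoA, had signals of 23611 and 7968 in the 14-month female and 18-month male HCC, against 7774 and 5230 in their adjacent livers. The 21-month female had 4582 in the nodules, against 12468 in adjacent liver. Its young signals were 11786 and 4286 in the knockout female and male pools, against 3958 and 6353 in the wild-type female and male pools. The HCC signals were each above their own adjacent liver, and the nodules were below theirs.

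Elovl6, the elongase that turns palmitate into stearate, had signals of 9600 and 2337 in the 14-month female and 18-month male HCC, against 2843 and 2758 in their adjacent livers. The nodules had 2036, against 5361 in adjacent liver. Of the young pools, the knockout ones had 5382 in females and 1819 in males, against 962 and 2008 in wild-type females and males. The female HCC was the highest array and the wild-type female pool the lowest, 9.98-fold apart.

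Scd1, the desaturase that makes oleate and palmitoleate, varied least of the 10 genes. Its signals were 71361 and 52202 in the 14-month female and 18-month male HCC, against 62797 and 41440 in their adjacent livers, and 59288 in the nodules, against 78413 in adjacent liver. The young knockout female and male pools had 74242 and 61741, against 31831 and 56602 in the wild-type pools. Both knockout pools were above both wild-type pools. The whole range was 2.46-fold, and 52.5% of the tested genes ranged as widely. These signals were near the highest of any probe set (74048.3 to 122580.5 per array), and a second, dimmer Scd1 probe set ranged 12.59-fold, with 16122 and 6630 in the knockout female and male pools, against 1634 and 4549 in the wild-type pools.

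Me1, the cytosolic malic enzyme that yields NADPH, set the 18-month male apart from all other mice. Its signals were 1072 in the HCC and 1459 in the adjacent liver of that mouse, against 5188 to 12341 on the other 8 arrays. The 14-month female had 12210 in the HCC, against 5188 in adjacent liver, and the 21-month female had 7129 in the nodules, against 10162. The young knockout female and male pools had 12341 and 5974, against 5280 and 9279 in the wild-type pools, so the genotypes overlapped.

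Thrsp had the widest range of the 10 genes, 34.2-fold, which 1.5% of the tested genes reached. It was at 2529 in the HCC of the 18-month male, against 802 in its adjacent liver, and at 23269 in the HCC of the 14-month female, against 8337. In the 21-month female it was at 8767 in the nodules, against 24378 in adjacent liver. The young knockout female and male pools had 27114 and 11802, against 1653 and 27417 in the wild-type female and male pools. The 3 lowest arrays for Thrsp were the 3 with the lowest Dbp, namely both arrays of the 18-month male and the wild-type female pool. The part of sampling hour or feeding in this was not tested.

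Srebf1, the source of SREBP-1c (and of SREBP-1a, from which the probe set was not separated here), was highest in the knockout female pool. Its signals were 12972 and 4940 in the knockout female and male pools, against 3583 and 4196 in the wild-type female and male pools, so both knockout pools were above both wild-type pools. The 14-month female and 18-month male HCC had 6881 and 3700, against 4188 and 2163 in their adjacent livers, and the nodules had 2391, against 5914 in adjacent liver. Each HCC was above its own adjacent liver and the nodules were below theirs.

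Mlxipl stood apart from the others. Its signals were 3309 and 1681 in the knockout female and male pools, both below the 5772 and 4002 of the wild-type pools. The HCC of the 14-month female and the 18-month male had 6454 and 4402, against 4547 and 3674 in adjacent liver. The nodules had 6886, the highest of the 10 arrays, against 3316 in adjacent liver. Lesion and adjacent signals of Mlxipl overlapped, with the 18-month male HCC at 4402 below the 14-month adjacent liver at 4547.

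**Figure D2:**
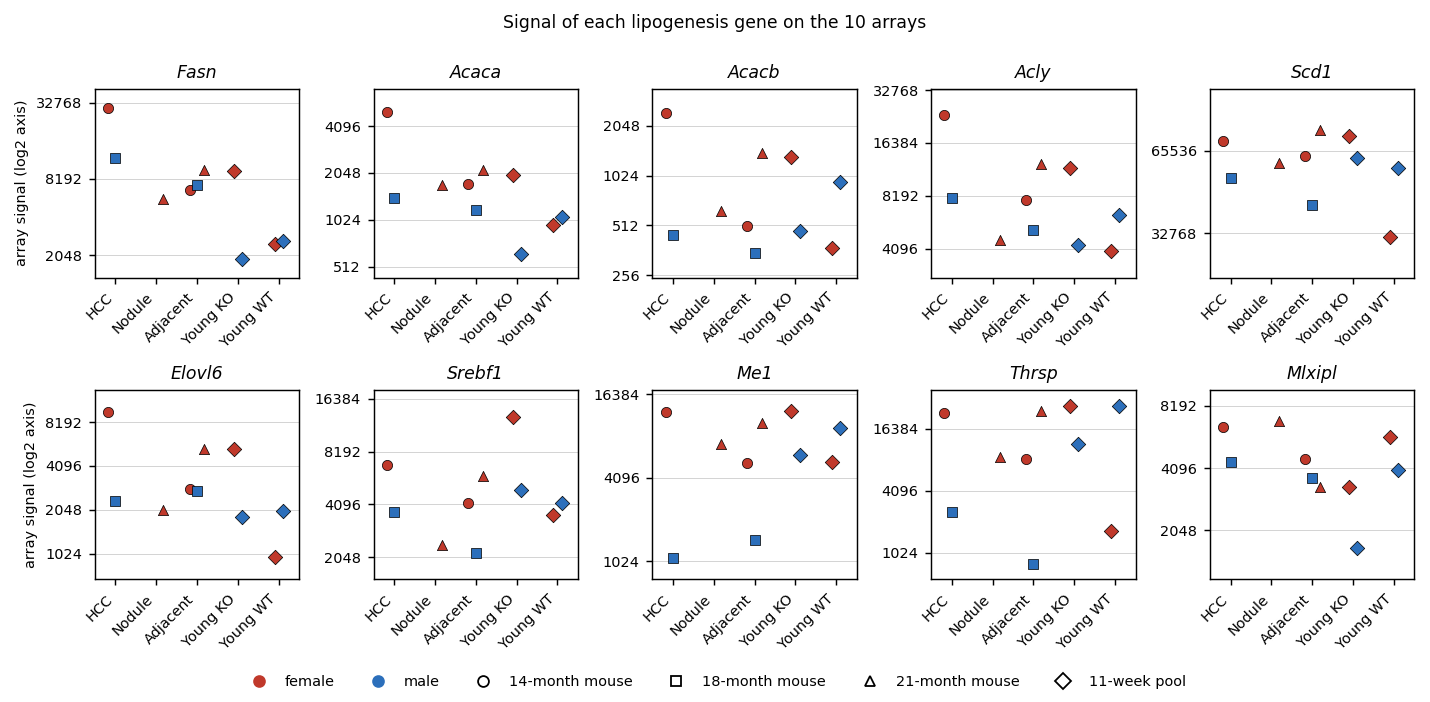
Array signals of the 10 genes on log2 axes, each panel with its own range, for HCC, nodules, adjacent liver, young knockout and young wild-type liver. Red points are females and blue points males, and the marker gives the mouse or pool. In 5 panels (Fasn, Acaca, Acacb, Acly and Elovl6) the 14-month female HCC is the highest point, and Thrsp and Me1 are low in both arrays of the 18-month male.

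At 11 weeks, the comparison of knockout with wild-type liver asked what loss of Gnmt does before tumours. For 7 of the 10 genes the knockout pool was higher in females and lower in males. In females 9 of the 10 genes were at least 2-fold higher in the knockout pool, against 4.78% of all tested genes, and 0 were at least 2-fold lower, against 6.5% of all. Their differences on the log2(signal + 16.8) scale ran from 1.05 for Acaca through 1.57 for Acly, 1.91 for Fasn and 2.46 for Elovl6 to 4.02 for Thrsp, while Mlxipl was at -0.80. In males 0 of 10 were at least 2-fold higher in the knockout pool, against 6.08% of all genes, and 2 were at least 2-fold lower, Thrsp (-1.21) and Mlxipl (-1.24), against 6.52% of all. The other differences in males were from -0.96 for Acacb to 0.23 for Srebf1. The median over the 10 genes was 1.67 in females and -0.60 in males, where the medians over all genes were -0.05 and -0.04.

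In the fit over both sexes, with sex as a term, 0 of the 10 genes were called by limma at an adjusted p under 0.05, against 1.45% of all genes (160 of 11032, 78 higher and 82 lower). The 10 genes had a median difference of 0.59, and 3 of them, Mlxipl, Srebf1 and Scd1, had an unadjusted p under 0.05, as 2151 of all genes did. Mlxipl came closest, with a difference of -1.02 ± 0.22 (SE from limma, 2 pools in each genotype, adjusted p = 0.0792 in limma). Here and below ± gives this SE, which draws on the spread of all genes. It can be narrower or wider than the spread of the pairs themselves. For Thrsp the female and male pairs were at 4.02 and -1.21. Srebf1 differed by 1.04 ± 0.36 (limma adjusted p = 0.192), Scd1 by 0.67 ± 0.26 (0.218) and Elovl6 by 1.16 ± 0.53 (0.291). Fasn differed by 0.73 ± 0.49, Thrsp by 1.40 ± 1.0, Acly by 0.50 ± 0.45, Acacb by 0.41 ± 0.56, Me1 by 0.29 ± 0.40 and Acaca by 0.13 ± 0.41, with limma adjusted p from 0.458 to 0.891. The fit left 1 residual degree of freedom. Endothelial markers summed to 5368 and 5743 in the knockout female and male pools, against 13502 and 10006 in the wild-type pools. Of the 9 tested, 0 had a positive fitted difference (median -0.77), and 2, Oit3 and Stab2, were called lower by limma. Macrophage and Kupffer cell markers summed to 17289 and 16681, against 30328 and 20163, and 0 of the 11 had a positive fitted difference (median -0.56). The adipocyte genes summed to 847 and 5389, against 1074 and 1352, with Fabp4 at 4745 in the knockout male pool, against 624. The 3′ to 5′ ratio of Actb was 3.38 and 3.18, against 2.62 and 2.60. That of Gapdh was closer, at 0.95 and 1.09, against 0.94 and 0.98. The part of none of these was tested. In a whole tissue, fewer cells of a type and less RNA per cell cannot be told apart. Without either female pool the median became -0.60, and without either male pool 1.67, since the difference then rests on the other sex. After quantile normalization Mlxipl was called (-1.05 ± 0.22, limma adjusted p = 0.0154).

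The difference between the sexes in the genotype effect was itself tested, as an addition made after the values were seen. The 4 pools alone leave no residual degree of freedom for it, so all 10 arrays were fitted and the spread came from the aged ones (2 residual degrees of freedom). That fit had no mouse term, so lesion and adjacent liver of the same mouse counted as separate arrays. The spread of single aged mice was thus applied to young pools of 3 mice, which also differed in hybridisation controls. The knockout difference in females exceeded that in males by 5.24 ± 1.02 for Thrsp, 2.73 ± 1.04 for Acacb, 2.61 ± 0.91 for Elovl6, 2.36 ± 0.69 for Fasn and 2.14 ± 0.60 for Acly, with 0 of 11032 genes called by limma and 286 at an unadjusted p under 0.05. Of the 10 genes 7 had an unadjusted p under 0.05, the lowest 0.00165 for Thrsp, and each had a limma adjusted p of 1.0. The wild-type female pool was the lowest of the 10 arrays for Acly, Scd1 and Elovl6, and it stood apart in Dbp and Arntl. Its 7 fasting genes summed to 107616, against 64919 in the wild-type male pool. The knockout female and male pools had sums of 58196 and 46716. Of these genes, Cyp4a14 was at 38568 in the wild-type female pool, against 10657 in the wild-type male pool. Pck1 was nearly equal in these 2 pools, at 39874 and 37593. G6pc, the last enzyme of glucose release, was called lower in knockout liver by limma. Its signals were 5559 and 2481 in the knockout female and male pools, against 18954 and 9152 in the wild-type pools. The part of these in the lipogenesis genes was not tested. Between the knockout pools, where Dbp was at 11097 in females and 8414 in males, all 10 genes were higher in females, from 0.27 for Scd1 to 2.27 for Fasn. Their median was 1.42, against 0.02 over all genes. Between the wild-type pools 9 of 10 were lower in females, with Thrsp at -4.04 and a median of -0.75, against 0.04 over all genes. Over both genotypes 0 of the 10 genes were called by limma between females and males, against 0.272% of all genes (30 of 11032), and 1016 of all genes had an unadjusted p under 0.05. Mlxipl, at 0.75 ± 0.22 (limma adjusted p = 0.398), was the only one of the 10 with an unadjusted p under 0.05.

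**Figure D3:**
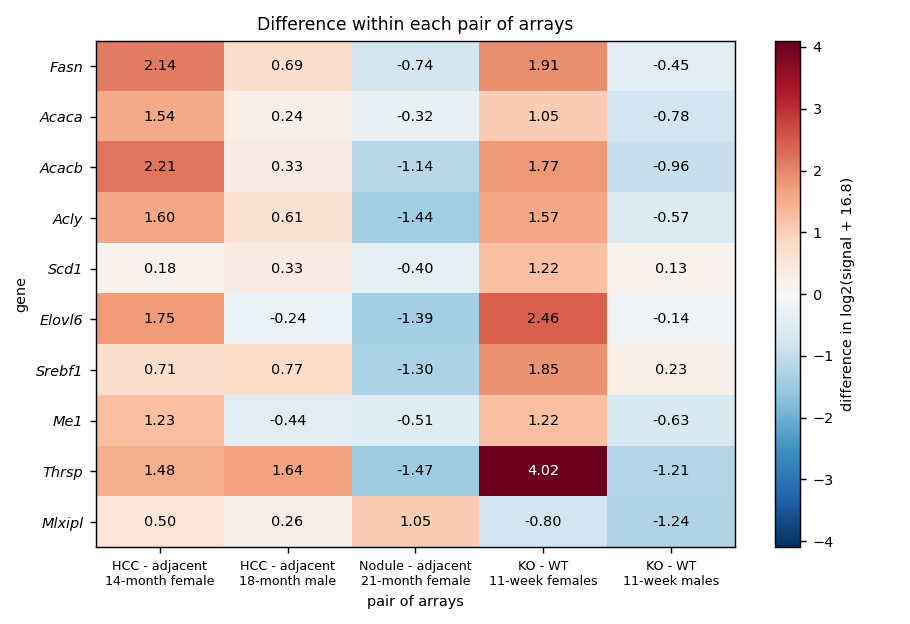
Difference in log2(signal + 16.8) for each gene within each of the 5 pairs of arrays, lesion minus adjacent liver or knockout minus wild-type, red for higher and blue for lower. The 14-month female HCC and the young female knockout columns are almost wholly red (medians 1.51 and 1.67), the nodule column is blue except for Mlxipl (1.05), and the young male column runs from -1.24 to 0.23.

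In HCC against adjacent liver, which asked what differs in tumour tissue, the 14-month female carried the larger differences. In that mouse all 10 genes were higher in the tumour, 7 of them at least 2-fold, against 6.23% of all genes, and 0 were at least 2-fold lower, against 4.07% of all. Acacb (2.21), Fasn (2.14), Elovl6 (1.75) and Acly (1.60) differed most. The smallest difference was 0.18 for Scd1 on a probe set near the top of the array range, and its dimmer probe set gave 0.66, above the 0.50 of Mlxipl. In the 18-month male 8 of 10 were higher in the tumour, and 1, Thrsp (1.64), was at least 2-fold higher, against 4.54% of all genes. There 0 were at least 2-fold lower, against 4.6% of all, with Elovl6 at -0.24 and Me1 at -0.44. The medians of the 10 genes were 1.51 in the female and 0.33 in the male pair, where all genes had 0.02 and -0.04.

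Over both pairs 0 of the 10 genes were called by limma, against 0.0816% of all genes (9 of 11032, 7 higher and 2 lower). Thrsp differed by 1.56 ± 0.26 (SE from limma, 2 pairs of arrays, limma adjusted p = 0.0928). It was at 1.48 in the female and 1.64 in the male mouse, while a second, dimmer Thrsp probe set gave 1.06 and 0.26. In a model over all 10 arrays Thrsp was at 0.71 ± 1.52 (limma adjusted p = 0.923). With the mean of all probe sets Acacb was at 0.46 and Acaca at 0.54. That mean takes in a second Acacb probe set below the filter level on every array. Fasn differed by 1.42 ± 0.36 (limma adjusted p = 0.262), Acly by 1.10 ± 0.31 (0.339), Acacb by 1.27 ± 0.42 (0.471), Srebf1 by 0.74 ± 0.26 (0.524) and Acaca by 0.89 ± 0.34 (0.573), and these 6 had an unadjusted p under 0.05, as 844 of all genes did. Elovl6 (0.76 ± 0.43), Me1 (0.40 ± 0.39), Mlxipl (0.38 ± 0.27) and Scd1 (0.26 ± 0.27) had limma adjusted p from 0.786 to 0.913. All 10 differences were positive, with a median of 0.82, and without the 14-month female pair Elovl6 and Me1 became negative (-0.24 and -0.44). The fit left 1 residual degree of freedom.

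**Figure D4:**
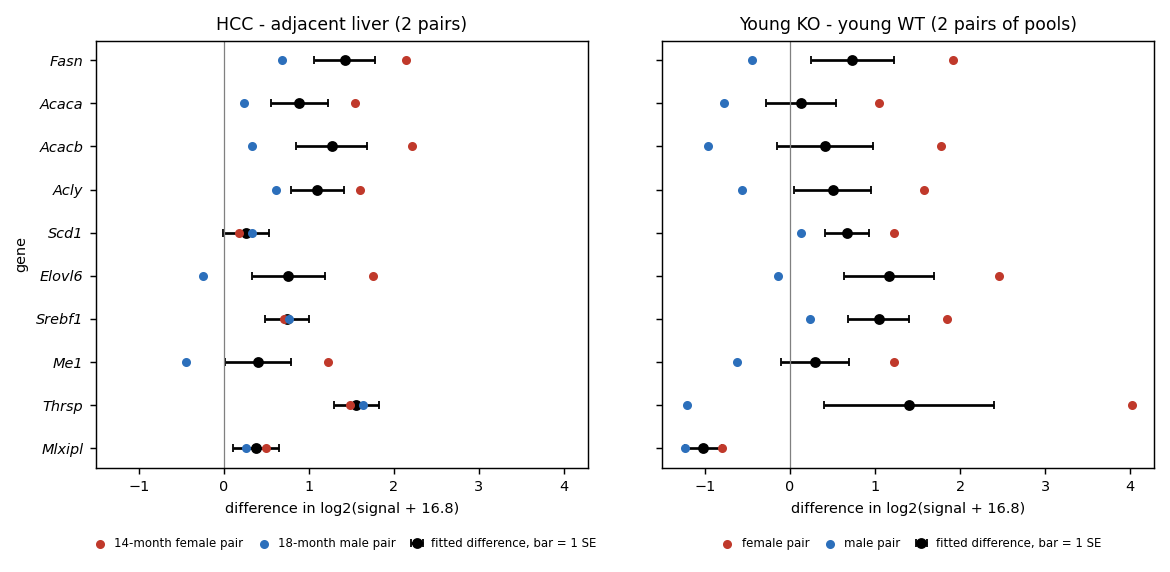
Fitted differences (black) of the 10 genes for HCC minus adjacent liver and for young knockout minus wild-type liver. The bar is 1 SE from limma, which draws on all genes, and coloured points give the difference in each pair (red female, blue male). In HCC the female and male points are at 1.48 and 1.64 for Thrsp, whose second probe set gave 1.06 and 0.26, and at 0.71 and 0.77 for Srebf1, while at 11 weeks the sexes lie on opposite sides of 0 for 7 genes.

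The 14-month female HCC also differed from its adjacent liver in markers of other cells and of fasting. Fabp4, a fatty acid binding protein of adipocytes, macrophages and endothelium, was at 27809 in that tumour, against 1254 in adjacent liver. The 7 adipocyte genes summed to 28279, against 1590, with Plin4 at 314, against 175, and Lipe at 128, against 112, while Adipoq, Lep, Retn and Ucp1 were below the filter level in both. Of 9 stellate cell and fibroblast genes 4 were at least 2-fold higher in the tumour, against 6.23% of all genes. Among these 4 were the collagen gene Col3a1 at 6253, against 1451, and the smooth muscle actin gene Acta2 at 1261, against 393. The hepatocyte markers summed to 476738, against 567340. Of these 10 markers 3 were at least 2-fold lower in the tumour (Hpd, Cps1 and Asgr1), against 4.07% of all genes, and 3 were higher. Macrophage markers summed to 29184, against 30332. The fasting genes summed to 20050, against 56433, with Pck1, an enzyme of glucose synthesis, at 8558, against 29004. Of these 7 fasting genes 2 were higher in the tumour, Fgf21 at 1258, against 186, and Pdk4 at 1742, against 1070. Actb had a 3′ to 5′ ratio of 3.46 in that tumour, against 2.61, and Gapdh one of 1.07, against 0.85, ratios that grow as RNA is degraded. The part of these in its lipogenesis signals was not tested.

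The nodules ran the other way. Of the 10 genes 5 (Thrsp -1.47, Acly -1.44, Elovl6 -1.39, Srebf1 -1.30 and Acacb -1.14) were at least 2-fold lower than in adjacent liver, against 3.86% of all genes, and 1, Mlxipl (1.05), was at least 2-fold higher, against 7.81% of all. Fasn (-0.74), Me1 (-0.51), Scd1 (-0.40) and Acaca (-0.32) were lower by less. The median was -0.94, against 0.02 over all genes. With 1 array a side this pair had no test of its own. Pck1 was at 11308 in the nodules, against 29529, and Dbp at 2505, against 7798. The 7 fasting genes summed to 21215 in the nodules, against 51405. Of these 7 genes 2, Pck1 and Cyp4a14, were at least 2-fold lower, against 3.86% of all genes. G6pc was nearly equal, at 2130, against 2211, and 1 of the 7, Fgf21, was higher. The 7 adipocyte genes summed to 3153, against 1007. Of the stellate cell and fibroblast genes 4 of 9 were at least 2-fold higher in the nodules, against 7.81% of all genes, with a median of 0.85. Macrophage markers summed to 33568 in the nodules, against 16261, and hepatocyte markers to 488805, against 664389, and their part in the lower signals was not tested.

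The difference between the HCC pairs and the nodule pair was tested with the mouse as a term, also after the values were seen. The HCC difference exceeded that of the nodules by 3.03 ± 0.45 for Thrsp (n = 2 pairs against 1, limma adjusted p = 0.12), by 2.54 ± 0.54 for Acly (0.343) and by 2.04 ± 0.44 for Srebf1 (0.374). For Fasn it was 2.16 ± 0.62 (0.58). Of the 10 genes 0 were called, against 0.0363% of all genes (4 of 11032), and 6 had an unadjusted p under 0.05, as 552 of all genes did. The fit left 1 residual degree of freedom. When the nodules were counted with the HCC as lesions, over 3 pairs, 0 of 10 were called by limma, against 0.00906% of all genes (1 of 11032). The median of the 10 genes was 0.36, and it was -0.15 without the 14-month female pair. Mlxipl, higher in all 3 lesions, had 0.60 ± 0.21 (limma adjusted p = 0.425) and was the only one of the 10 with an unadjusted p under 0.05, as 1096 of all genes had.

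Adjacent aged knockout liver was set against young knockout liver, with sex as a term, to ask how the lesion-bearing liver differs from that of young knockout mice. Of the 10 genes 0 were called by limma, against 0% of all genes, with 1355 at an unadjusted p under 0.05. Thrsp was at -2.18 ± 0.71 (n = 3 livers and 2 pools, limma adjusted p = 0.391), Srebf1 at -1.30 ± 0.24 (0.344) and Me1 at -1.30 ± 0.40 (0.386), and these 3 had an unadjusted p under 0.05. The others ran from -0.54 for Acacb to 0.70 for Fasn, and the median was -0.16, against 0.08 over all genes. Single arrays decided the calls. Without the knockout female pool Fasn (1.93) and Thrsp (-3.85) were called, with 441 genes in all, and without the adjacent liver of the 21-month female Me1 (-1.63) and Thrsp (-2.78) were called, with 110 in all. Without the knockout male pool, or without the adjacent liver of the 18-month male, Thrsp was at -0.93 and Me1 at -0.76. Without the adjacent liver of the 14-month female the median was 0.01. The clock genes had a median of -1.03 in this comparison, and all 11 macrophage and Kupffer cell markers had a positive difference (median 0.67, 0 called), and the part of neither was tested.

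The 9 genes other than Mlxipl tended to be high or low on the same arrays. These correlations describe arrays that share mice and pools and have no p. The 36 pairs of genes without Mlxipl had a median Pearson r of 0.68, from 0.01 for Fasn with Me1 to 0.94 for Acly with Elovl6. The 9 pairs with Mlxipl had a median of 0.06, from -0.27 with Srebf1 to 0.56 with Acaca. Fasn had an r of 0.42 with Mlxipl, against 0.15 with Thrsp and 0.3 with Srebf1. Against the mean of the other 9 genes, r was 0.95 for Acacb, 0.91 for Acly, 0.87 for Elovl6, 0.85 for Acaca, 0.74 for Scd1, 0.69 for Thrsp, 0.66 for Fasn, 0.64 for Srebf1, 0.58 for Me1 and 0.10 for Mlxipl. Among 10660 other genes, those most like the mean of the 10 were Gpd2, the mitochondrial glycerol-3-phosphate dehydrogenase (r = 0.957, Spearman rho = 0.927), Apbb1 (0.938, 0.939), Asrgl1 (0.912, 0.83), Snx3 (0.89, 0.83) and Anks4b (0.878, 0.794). Without the 14-month female HCC and the knockout female pool, r was 0.885 for Gpd2 and 0.973 for Apbb1. The most opposed genes were Cog3 (-0.877), Jagn1 (-0.872), Nop16 (-0.872), Traf7 (-0.862) and Med27 (-0.861).

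A second probe set passed the filter for 6 of the 10 genes. It gave the same direction in the young female pair for Scd1 (3.29), Thrsp (4.46), Elovl6 (2.53), Me1 (2.0) and Acly (1.09), but -0.20 for Acaca, whose second probe set was dim (28 to 173). In the 18-month male pair the second probe sets were at 0.26 for Thrsp, against 1.64 with the first, at 0.50 for Elovl6, against -0.24, at 1.25 for Scd1, against 0.33, and at -0.43 for Acaca, against 0.24. In the nodule pair all 6 second probe sets were lower than in adjacent liver, from -1.54 for Thrsp to -0.28 for Acaca.

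Other genes of the pathway were taken as 6 lists. Of 17 measured regulators that handle SREBP, LXR and ChREBP signals, 0 passed in any of the 5 fits, and their median between young knockout and wild-type liver was -0.06. The largest values there were Nr0b2, a repressor among nuclear receptors, at -1.46 (limma adjusted p = 0.158) and Usf1, an E-box factor, at -0.88 (0.204). Srebf2, the sterol-directed relative of Srebf1, was at -0.99 in HCC against adjacent liver (limma adjusted p = 0.43), with 383 and 388 in the 14-month female and 18-month male tumours, against 978 and 621. Of 11 genes that supply citrate and acetyl-CoA 0 passed. Acss2, which makes acetyl-CoA from acetate, was at 1.84 ± 0.41 in young knockout liver (limma adjusted p = 0.0847), with 23771 and 9459 in the knockout female and male pools, against 3364 and 5207 in the wild-type pools. Of 15 genes around malonyl-CoA and carboxylase control 0 passed, with a median of 0.00 in the same comparison.

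Genes that supply NADPH and those that use the new fatty acid held the calls. These calls depended on the settings of the fit. The 160 genes called between young knockout and wild-type liver became 1 without the intensity trend and 1 over all 10 arrays. Most of the calls named here were therefore lost in those 2 settings. Pgd, an NADPH-yielding enzyme of the pentose phosphate pathway, rose by 2.08 ± 0.25 in young knockout liver (limma adjusted p = 0.0189), with 6005 and 4476 in the knockout female and male pools, against 1097 and 1344 in the wild-type pools. It was the only 1 called of 7 measured NADPH genes, against 1.45% of all genes, and Tkt, the transketolase, was next at 0.70 (0.179). Unlike most of the 10 genes, Pgd and Tkt were high in the nodules, at 16306 and 23491, against 5946 and 5807 in adjacent liver. Of 21 genes that elongate, desaturate, esterify or store fatty acid, 2 rose and 1 fell in young knockout liver, with a median of 0.79. Over all genes 1.45% were called there in either direction. Cidec, a lipid droplet coat protein, rose by 4.23 ± 0.30 (limma adjusted p = 0.00894) and Mogat1, a monoacylglycerol acyltransferase, by 2.80 ± 0.34 (0.0189). Elovl3, an elongase known as higher in male liver, fell by 1.93 ± 0.23 (limma adjusted p = 0.0177), with 152 and 1485 in the knockout female and male pools, against 593 and 6034, and it differed by -3.23 ± 0.23 between females and males (limma adjusted p = 0.00247).

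In HCC 1 of these 21 genes was called, against 0.0816% of all genes. Without the intensity trend, or without the mouse term, 0 genes were called in HCC, so this call was lost there. Pnpla3, a lipid droplet lipase-like protein known as an SREBP-1c target, rose by 3.43 ± 0.41 (limma adjusted p = 0.0345), with 2154 and 852 in the 14-month female and 18-month male tumours, against 98.6 and 124 in their adjacent livers, while the nodules had 81.7, against 153. Scd2, a desaturase low in adult liver, was at 2.42 ± 0.53 (limma adjusted p = 0.188), with 8961 and 12028 in the tumours, against 4329 and 857, and at 7154 in the nodules, against 13994. Cidea, a relative of Cidec, was at 10350 and 377 in the tumours, against 356 and 823 in their adjacent livers. By pair, 8 of the 21 were at least 2-fold higher and 1 lower in the 14-month female HCC, against 6.23% and 4.07% of all genes. In the 18-month male HCC these counts were 4 and 1, against 4.54% and 4.6% of all. In the nodules they were 0 and 8, against 7.81% and 3.86% of all, with a median of -0.96. Of 9 genes of sugar entry and ChREBP response 0 passed. Pklr, liver pyruvate kinase and a ChREBP target, was at 1.50 ± 0.60 in HCC (limma adjusted p = 0.596), with 8104 in the 14-month female tumour, against 948, and 629 in the 18-month male tumour, against 661. In young knockout liver Pklr was at -0.99 (limma adjusted p = 0.234), with 1145 and 583 in the knockout female and male pools, against 1252 and 2150 in the wild-type pools, so the difference lay mostly in males.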

How the data were processed

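Total RNA of 10 liver samples was measured on Affymetrix arrays, as biotinylated cRNA from 5 µg RNA, per the labels' protocols. The deposited values are signal intensity per probe set on a linear scale. GCOS is named in the submitters' processing notes, and its version and settings are not given in the sources used here. Tested on the values, each array had a trimmed mean of 500 with 2% left out at each end. Of 45101 probe sets, 34945 carried 1 gene in the platform annotation, 932 several and 9211 were not listed, and 64 are controls.

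The log2 of signal + 16.8 (the 20th percentile of all signals) was used, with 1 probe set per gene, the one of highest mean. Genes with a mean above that of a signal of 91.0, the median of all, were kept (11032 of 18193). Fits were made with limma 3.58.1 in R 4.3.3 with an intensity trend and Benjamini-Hochberg adjustment over the 11032 genes, called at 0.05. The fits were knockout against wild-type (sex as a term), female against male (genotype as a term), HCC or all lesions against adjacent liver (mouse as a term) and adjacent against young knockout liver (sex as a term). They were also run on simulated data with planted changes larger than those of the 10 genes in these fits. That does not show their power for differences of the size seen here. With 1 or 2 residual degrees of freedom the calls lean on the spread shared across genes, and nothing but the pools of 3 mice and the separate aged mice gives biological spread. Single pairs have no test, and a 2-fold rule was used for them. Tables were handled with Python 3.11.15 and pandas 2.3.3.

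Members, gene lists and tests were chosen with earlier results of these data known. Genes named beside the 10 and Gnmt are those called in a list or with its 2 largest differences in a comparison, and the 5 most and 5 least like the mean of the 10. Marker genes were taken from fixed lists, and those named were chosen after their values were seen. Alternatives changed the scaling, the added constant (0.5 and 2 times), the filter, the probe set rule, the variance trend, the arrays in the model and the terms, and left out each array or pair in turn.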

Additional observations from a re-analysis of the deposited data

How the results depend on the processing

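None of the 10 genes was called in any of the 5 fits as reported. Among the alternatives that kept all arrays, 1 was called, Mlxipl between young knockout and wild-type liver after quantile normalization. The number of genes called between knockout and wild-type (160) became 607 with quantile normalization, 341 with centring on the 75th percentile, 38 with the mean of all probe sets, 1 without the intensity trend, 1 in a model over all 10 arrays and 2 without the sex term. With the mean of all probe sets Acaca became negative (-0.26), Scd1 was at 1.29 and Elovl6 at 0.45. The 9 genes called in HCC became 3 with quantile normalization, 4 with centring, 16 without the filter, 0 without the trend, 1 over all arrays and 0 without the mouse term. In that comparison Thrsp (1.56) was at 0.71 over all arrays, and with the mean of all probe sets Acacb (1.27) was at 0.46, Acaca (0.89) at 0.54, Scd1 (0.26) at 0.60 and Elovl6 (0.76) at 1.22. For all lesions the 1 gene became 3 with centring, 0 with the mean of probe sets, 3 without the filter, 5 over all arrays and 0 without the mouse term. Between the sexes the 30 genes became 87 with quantile normalization, 19 with the mean of probe sets and 1 without the trend. By pair, Mlxipl was not 2-fold higher in the nodules after centring (0 genes). With the mean of all probe sets 1 gene was 2-fold lower in young knockout males, 3 were 2-fold lower in the nodules and 0 were 2-fold higher in the male HCC. The mean of all probe sets also takes in dim ones. The second Acacb probe set was at 5.5 to 73.9 on the 10 arrays, below the filter level of 91.0. The cause of the changes under the other settings was not tested.

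Leaving out 1 array or pair turned the direction of several values. For knockout against wild-type the median ran from -0.60 (either female pool left out) to 1.67 (either male pool), Fasn from -0.45 to 1.91, Acaca from -0.78 to 1.05, Acacb from -0.96 to 1.77, Acly from -0.57 to 1.57, Elovl6 from -0.14 to 2.46, Me1 from -0.63 to 1.22 and Thrsp from -1.21 to 4.02, with 1 to 4 genes called. For HCC, Elovl6 ran from -0.24 to 1.75 and Me1 from -0.44 to 1.23, with 5 to 9 genes called. For all lesions the median ran from -0.15 to 0.82, with 2 to 177 genes called. For adjacent against young knockout liver it ran from -0.36 to 0.01, with 0 to 2 of the 10 genes and 0 to 441 genes called, Thrsp from -3.85 to -0.93, Me1 from -2.02 to -0.76, and Fasn from -0.23 (without the knockout male pool, or without the adjacent liver of the 18-month male) to 1.93 (without the knockout female pool). Between the sexes it ran from -0.75 to 1.42, with 2 to 6 genes called. A lone array in these fits was taken to vary like the other groups.

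The sex and mouse terms already pair the arrays, and no fit by replicate number was made because the labels carry none. Limits are the 1 or 2 residual degrees of freedom, the mixing of 3 mice in each young pool, the inferred pairing of lesion and adjacent liver, Scd1 signals near the top of the range, and no record of feeding or hour of sampling.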
